A study of Mus musculus with 661 samples.

Results

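The interferon response genes described here are 34 mouse genes that cells turn on after interferon or viral nucleic acid is sensed, taken by symbol from a list. All 34 were present among the 45771 nuclear genes of the count table, none was absent, and each had counts in the cells used. The series profiled 661 single bone marrow stromal cells from young and old mice by plate-based RNA sequencing of full-length cDNA. Cells with *Il1b* at 1000 CPM or more (CPM scales the counts of a gene by the total of nuclear gene counts) were left out, which removed 8 old OPr cells and left 653. All mice were wild-type C57BL/6, the young about 2 months of age and the old about 24 months. Of 6 sorted populations, 4 came from the endosteum, the inner bone surface, and 2 from the central marrow, and every gate required absence of the blood markers CD45 and Ter119.

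MSC-S were endosteal mesenchymal stromal cells positive for Sca-1 and CD51. The osteoprogenitors mOPr (multipotent, positive for PDGFRα) and OPr (committed, negative for it) were endosteal cells without Sca-1 or LepR, and AEC were endosteal CD31-positive endothelial cells with high Sca-1 and low CD105. MSC-L were central marrow mesenchymal cells positive for LepR, and SEC were central marrow endothelial cells with low Sca-1 and high CD105. Young mice gave 53 MSC-L, 59 MSC-S, 26 mOPr, 44 OPr, 84 AEC and 70 SEC. The retained cells of old mice numbered 58, 59, 26, 21, 82 and 71 in the same order. The authors report several mice of each age, but no label names the mouse behind a cell. Each of the 12 groups of age and population therefore counts as 1 sample without replicates, and ratios between groups are descriptions with no test.

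Interferons bind receptors that signal through JAK kinases and STAT proteins, and the resulting factor complexes switch on genes whose products sense foreign nucleic acid, block translation, trap virus particles or attack the membranes of intracellular pathogens. Type I interferons act mainly through complexes that hold STAT2 and IRF9, whereas the interferon gamma response relies in large part on IRF1. In bone marrow, interferons drive hematopoietic stem cells out of rest, and stromal and endothelial cells both make and receive such inflammatory signals.

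Total counts per cell ran from 58034 to 1503374 with a median of 423133. Among young cells the group medians were 468565 in MSC-L, 608696 in MSC-S, 524176 in mOPr, 695499 in OPr, 417873 in AEC and 319565 in SEC. Those of the old groups were 357288, 703594, 451630, 802551, 424026 and 306315. Levels are CPM of the summed counts of a group, and 95% intervals (exact Poisson for levels, conditional binomial for ratios) cover counting error only, since the reads carried no molecular identifiers. Log2 ratios have 1 CPM added to each level. Library numbers in the labels fall into 3 ranges, with all SEC in range 3, AEC in all 3 ranges and mesenchymal cells in ranges 1 and 2, and ratios were recomputed within them. No cells shared a library number.

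Genes of the sort markers were also found where a gate excludes the protein. *Lepr* had 3160.4 CPM in young and 3239 in old MSC-L, and mOPr and OPr, sorted without LepR protein, still had 144 and 1047 CPM (mOPr) and 362 and 1778 (OPr), while SEC, whose gate did not use LepR, had 642 and 267. *Pdgfra* had 93.3 and 257 CPM in OPr, sorted without PDGFRα, against 464 and 1123 in mOPr. All 10 pan-endothelial markers had counts in AEC and SEC, with summed levels from 11115 CPM in young SEC to 12157 in old SEC and *Cldn5* the most abundant. In the mesenchymal groups the same list summed to at most 122 CPM (old mOPr), with *Emcn* and *Tie1* at 0 in young mOPr and *Cdh5*, *Tek* and *Tie1* at 0 in old mOPr. All 10 pan-mesenchymal markers had counts in the mesenchymal groups, from 6694 CPM in old OPr (*Bgn* highest) to 47203 in young mOPr (*Dcn* highest). AEC and SEC held 783 to 2490.0 CPM of that list, mostly *Bgn*. The 6 osteoprogenitor markers all had counts in mOPr and OPr, from 3479.7 CPM in young OPr (*Ibsp* highest) to 9253 in old mOPr (*Spp1* highest), and were as abundant in MSC-L (11374 and 7327). The 15 hematopoietic markers summed to 94.9 CPM in young and 596 in old SEC, to 35.3 in young and 256 in old MSC-L (*Plek* highest in both old groups), and to at most 43.1 in the other groups. No marker of that list was at 0 in either SEC group or in old MSC-L, and *Tyrobp*, *Cd52* and *Csf3r* were at 0 in young MSC-L. The 8 neutrophil markers summed to at most 23.6 CPM in any group (old AEC, *Ltf* highest), with *Cxcr2* at 0 in all 12.

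Pooled over the 653 cells and divided by kilobases of exon, the member levels covered a wide span, from 0.0781 CPM per kb for *Oas3* to 802 for *Ifitm3*. Behind *Ifitm3* came *Irf1* (197 CPM per kb), *Bst2* (70.7), *Gbp2* (40.4), *Igtp* (32.3), *Ifi35* (31.2), *Irgm1* (21.4), *Rtp4* (21.1), *Isg15* (17.7) and *Iigp1* (16.7). With the 12 groups weighted equally the same 10 members led, and *Iigp1* (17.4) stood above *Isg15* (15.0). Since *Irf1* and *Ifitm3* held 51.7% of all member counts, summed levels are given for the other 32. These summed to 2336 (95% interval 2319.8 to 2352) CPM in young and 2186 (95% interval 2171 to 2202) in old AEC. In SEC the sums were 1493 (95% interval 1477 to 1509) and 1435 (95% interval 1419 to 1451), and in MSC-L 1543 (95% interval 1527 to 1559) and 1331 (95% interval 1315 to 1347). The endosteal mesenchymal groups were lower when young, with 549 (95% interval 541 to 557) in MSC-S, 372 (95% interval 362 to 382) in mOPr and 451 (95% interval 443 to 458) in OPr. Old MSC-S fell to 363 (95% interval 357 to 369), whereas old OPr had 967 (95% interval 951 to 982) and old mOPr 1905 (95% interval 1881 to 1929.5), above old MSC-L and below old AEC. The old mOPr sum rests in part on 1 cell, which held 28.4% of its counts. Old AEC held the highest level of 10 of the 34 members, young AEC of 6, old mOPr of 5, young MSC-L of 4, young SEC of 3 and old OPr of 2. Old MSC-L, young MSC-S, young mOPr and old SEC each held the highest level of 1, and the other 2 groups of none. These counts are not set beside the same count over all genes, so they describe the list only. Some rest in part on single cells, as for *Ifit1* and *Mx2* in old AEC.

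**Figure D1:**
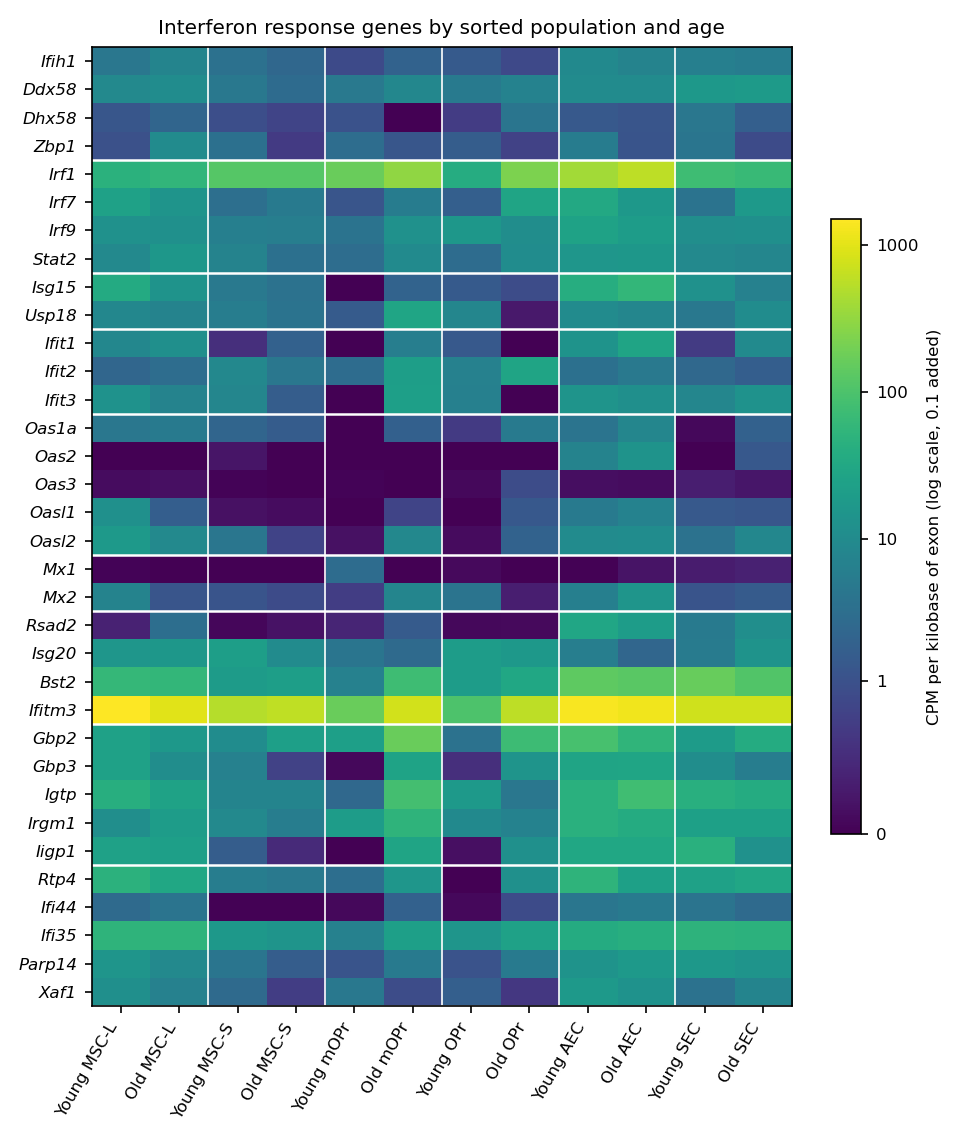
Level of each of the 34 genes (lines, grouped by role) in the 12 groups of age and sorted population (columns), as CPM per kilobase of exon on a log scale with 0.1 added. *Ifitm3* is the brightest line, from 101 in young OPr to 1504 in young MSC-L, and dark fields of 0 are most frequent in young mOPr.

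Age was compared within each sorted population for members with 100 or more counts, spread over 5 or more cells, in the 2 ages together. In mOPr, 24 of 34 members passed, the median of their log2 ratios, old over young, was 2.13 against 0.11 over all genes that passed, and 19 were at least 2-fold higher in old cells against 24.7% of all genes. Only 2 of the 24 were at least 2-fold lower, where all genes gave 19.8%. The median was 2.59 for the cells of library-number range 1 and 2.98 for those of range 2. For OPr, 25 members passed with a median of 0.67 (0.22 over all genes; 1.55 in range 1 and 0.99 in range 2). The OPr members spread both ways, with 12 at least 2-fold higher (all genes 26.4%) and 6 at least 2-fold lower (all genes 18.4%).

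MSC-S moved the other way. Among 28 members that passed, the median log2 ratio was -0.47 against -0.06 over all genes, with 9 at least 2-fold lower in old cells (all genes 11.1%) and 2 higher (all genes 8.65%). This lower median came from range 2, at -0.97, while range 1 gave 0.00295. Between young and old MSC-S the osteoprogenitor list fell from 1028 (*Spp1* highest) to 189 CPM (*Ibsp* highest) and the MSC-L list rose from 487 to 1106 (*Cxcl12* highest), none of these markers was at 0, and their part in the MSC-S ratios was not tested. Cluster make-up differed as well. Of the authors' MSC-S-like clusters, counted over all sorted populations, M9 held 10 cells, all old, and M15 held 17 cells, all young. M15 included mOPr and OPr cells as well as MSC-S, and the part of this difference was not tested. In MSC-L, 31 members passed with a median of -0.08 (all genes 0.01; -0.52 in range 1 and -0.13 in range 2), 2 at least 2-fold higher (all genes 13.9%) and 4 lower (all genes 11.5%).

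The endothelial medians lay near those of all genes. For AEC, 32 members passed with a median of 0.02 (all genes -0.03), 1 at least 2-fold higher (all genes 9.33%) and 3 lower (all genes 11.7%). The AEC median was 0.25, 0.05 and -0.69 in ranges 1, 2 and 3. For SEC, 30 members passed with a median of -0.02 (all genes 0.05), and 7 were at least 2-fold higher (all genes 13.1%) and 3 lower (all genes 7.56%). The hematopoietic list rose in old SEC and old MSC-L, where the member medians were -0.02 and -0.08. With cells that carry at least 7 hematopoietic markers left out, SEC again had 7 of 30 members higher (all genes 12.2%) and 3 lower (all genes 7.80%). In MSC-L that step left the counts as they were, so it decides nothing there. The part of the list in these values was not tested further. In SEC the 5 arteriolar markers also rose, from 247 to 952 CPM (*Ly6a* highest, none at 0), and the authors' SEC-like cluster E7 held 59 of 70 young but 44 of 71 old SEC. Within that cluster 28 members passed, with 4 at least 2-fold higher in old cells (all genes 11.4%) and 6 lower (all genes 10.4%). *Mx1* and *Oas3* passed in none of the 6 populations, and the members that passed were not the same set in each. A member that passes through the counts of 1 age alone has to differ between ages, so these counts describe and support nothing further. With members at 0 set to 3 counts over the group, the medians stayed at 2.13 in mOPr and 0.67 in OPr.

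**Figure D2:**
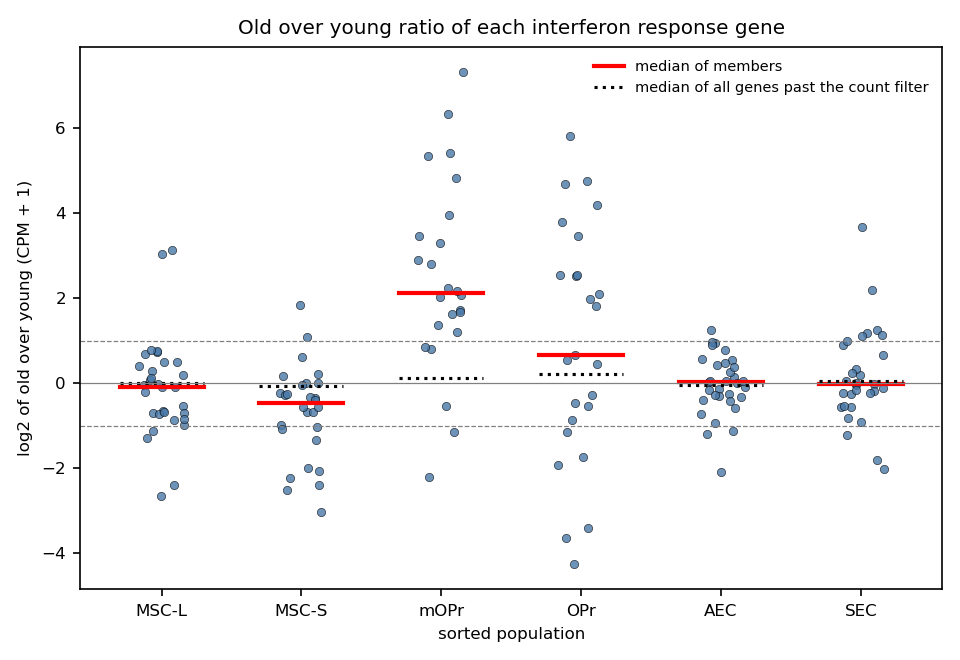
Log2 old over young ratio of each member past the count filter (points) in the 6 sorted populations, with 1 CPM added, the median of members (red bar) and of all genes past the filter (dotted bar), and dashed lines at 2-fold. The mOPr points centre on 2.13 and reach 7.33 for *Iigp1*, while the AEC points centre on 0.02.

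Among the sensors, *Ifih1* (which encodes MDA5) and *Ddx58* (RIG-I) are helicases that detect viral RNA, *Dhx58* (LGP2) modulates them, and *Zbp1* binds Z-form nucleic acid and can start cell death. *Ifih1* ranged from 6.05 CPM in old OPr to 76.6 in young AEC, *Ddx58* from 19.9 CPM in old MSC-S to 135 in old SEC and *Dhx58* from 0 CPM in old mOPr to 14.7 in young SEC (9.40 without the cell that held 37%). *Ddx58* was past 2-fold with age in no population. *Zbp1* had 3.46 CPM in young and 35.7 in old MSC-L, 12.1 and 1.48 in MSC-S, 10.6 and 4.24 in mOPr, and 5.69 and 2.00 in OPr. In endothelial cells its level was 19.8 CPM in young and 3.87 in old AEC, and 14.6 and 2.85 in SEC. It was at least 2-fold lower in the old cells of 5 populations and higher in MSC-L, more often past 2-fold in 1 direction than any other member. The decrease held within each range in AEC (log2 ratios of -1.65, -2.28 and -3.19), and in SEC, with range 3 alone, it was -2.02. Young AEC exceeded old AEC in *Zbp1* by 5.11-fold (4.24 to 6.19). In mesenchymal cells the ranges disagreed, with log2 ratios of -2.37 and 4.56 in ranges 1 and 2 of MSC-L, 2.28 and -3.67 in MSC-S, and 0.36 and -3.77 in mOPr. In OPr both were negative, at -2.85 and -0.15. *Zbp1* was seen in few cells, with 10 of 84 young and 5 of 82 old AEC, and 1 cell held 52.3% of the old MSC-L counts, but the ratio of each population stayed past 2-fold without the highest cells.

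The transcription factor members are *Irf1*, which drives gamma-type responses, *Irf7*, which amplifies type I interferon production, and *Irf9* and *Stat2*, DNA-binding and activating partners of 1 complex. *Irf1* had 187 CPM in young and 227 in old MSC-L, 473 and 473 in MSC-S, 669 and 1203 in mOPr, and 151 and 887 in OPr. Endothelial cells had 1602 CPM in young and 2321 in old AEC, and 303 and 256 in SEC. AEC of both ages stood highest and young OPr and young MSC-L lowest. The AEC increase was 1.45-fold (1.43 to 1.46), a log2 ratio of 0.53, with 0.23, 0.67 and 0.71 in ranges 1 to 3. The authors' AEC-like clusters E3 and E4 held 50 of 84 young and 61 of 82 old AEC, and all cells of these clusters had 1987 CPM of *Irf1* in young and 2414 in old mice, a smaller difference. In OPr, where the log2 ratio was 2.54, a single cell held 67.6% of the old counts, the ranges gave 0.15 and 3.67, and leaving out the top cell at each age gave 1.42. *Irf1* was among the genes that the authors used to guide the clustering of endothelial cells, and no other member was. *Irf7* ranged from 4.46 CPM in young mOPr to 123 in young AEC and was at least 2-fold higher in old mOPr, OPr and SEC. *Irf9* spanned from 20.4 CPM in young mOPr to 137 in young AEC, and *Stat2* from 17.5 CPM in young OPr to 97.3 in old AEC. Exons of *Irf1*, *Irf7* and *Irf9* overlap those of *Gm17334*, *Phrf1* and *Rnf31*, the last on the same strand, and such reads could not be assigned with certainty.

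*Isg15* encodes a ubiquitin-like protein that is joined to other proteins, and *Usp18* removes it and damps receptor signaling. *Isg15* had 27.1 CPM in young and 10.4 in old MSC-L, 3.59 and 2.81 in MSC-S, 0 and 1.52 in mOPr, and 1.09 and 0.624 in OPr. Its endothelial levels were 29.9 CPM in young and 44.7 in old AEC, and 9.62 and 5.02 in SEC. Young MSC-L exceeded old MSC-L by 2.60-fold (2.21 to 3.06), and the log2 ratio of -1.30 was -1.48 and -1.21 in ranges 1 and 2. No *Isg15* count was found in the 26 young mOPr cells, which allows up to 0.206 CPM at 3 counts. *Usp18* ranged from 0.250 CPM in old OPr to 79 in old mOPr (41.8 without the cell that held 50.6%). It had the smallest ratio of OPr, from 23 CPM in young to 0.250 in old cells, although 1 cell held 70.2% of the young counts and the log2 ratio of -4.26 became -2.84 without the highest cells. In the OPr-like identity group the direction turned, with 19.6 CPM of *Usp18* in young and 66.7 in old cells.

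The IFIT family includes proteins that bind viral RNA lacking the cap marks of host RNA. *Ifit1* ranged from 0 CPM in young mOPr to 72.5 in old AEC (40.2 without the cell that held 45.3%), *Ifit2* from 6.47 CPM in old SEC to 107 in old OPr (12.7 without the cell that held 89.3%) and *Ifit3* from 0 CPM in young mOPr to 39.4 in old mOPr (21.7 without the cell that held 48.4%). *Ifit1* had the largest ratio of SEC, from 1.14 CPM in young to 26.2 in old cells, with counts in 2 of 70 young and 5 of 71 old cells. An old SEC cell of cluster E3 had 1101 CPM, and the SEC-like cluster E7 had 0 CPM in young and 4.49 in old cells. *Ifit1* also had the largest ratio of MSC-S (0.695 to 5.05 CPM), where 1 cell held 99.5% of the old counts and the log2 ratio of 1.84 became -0.30 without the highest cells. *Ifit3* has a near-identical neighbor, *Ifit3b*, and reads that match both copies may have been lost from either.

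OAS enzymes make the second messenger that activates RNase L, and the OAS-like genes encode their relatives. *Oas1a* ranged from 0 CPM in young mOPr to 15.7 in old AEC, *Oasl1* from 0 CPM in young mOPr to 32.5 in young MSC-L (6.41 without the cell that held 80.7%) and *Oasl2* from 0.205 CPM in young OPr to 117 in young MSC-L. *Oasl1* had the smallest ratio of MSC-L, from 32.5 to 4.31 CPM, yet 1 cell held 80.7% of the young and 1 cell 97.6% of the old counts. *Oas2*, singled out after its values were seen, was nearly confined to AEC, with 31.9 CPM in young and 60.8 in old cells, found in 14 of 84 and 30 of 82 cells. Elsewhere *Oas2* had counts in 1 old SEC cell and 1 young MSC-S cell. *Oas3* had 166 counts in all, 54.8% of them from 1 cell.

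The Mx genes encode dynamin-like GTPases that block virus replication. *Mx1*, which carries a defective allele in C57BL/6 mice, had 197 counts in 10 cells, and 1 cell held 73.1% of them. *Mx2*, annotated as a polymorphic pseudogene, ranged from 0.437 CPM in old OPr to 54.5 in old AEC (34.5 without the cell that held 37.7%). Its AEC ratio was the largest of that population, from 22.3 to 54.5 CPM, with log2 ratios of 0.26, 1.75 and -1.82 in ranges 1 to 3, and the pooled 1.25 became 0.80 without the highest cells.

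The restriction factors act on virus particles and genomes: *Bst2* (tetherin) holds budding particles, *Ifitm3* hinders fusion with endosomes, *Rsad2* (viperin) makes a chain-terminating nucleotide and *Isg20* degrades RNA. *Ifitm3* had 1019.6 CPM in young and 652 in old MSC-L, 351 and 406 in MSC-S, 111 and 529 in mOPr, and 68.5 and 396 in OPr. AEC and SEC had 919 CPM in young and 842 in old AEC, and 512 and 499 in SEC. Counts of *Ifitm3* were found in 604 of the 653 cells, more than for any other member, and its highest cell held 1.14% of its counts. Old mOPr exceeded young mOPr by 4.75-fold (4.50 to 5.02) and old OPr exceeded young OPr by 5.78-fold (5.49 to 6.08). The log2 ratios were 2.77 and 1.69 in ranges 1 and 2 of mOPr and 1.91 and 6.77 in those of OPr. The 22 young OPr in clusters M3 and M4 had 0.515 CPM of *Ifitm3*. Within cluster M5 the OPr level went from 45.2 CPM in young to 269 in old cells, and the part of cluster make-up was not tested. In MSC-L the young level exceeded the old by 1.56-fold (1.53 to 1.6), with -0.65 in range 1 and -0.64 in range 2.

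*Bst2* had 54.8 CPM in young and 51.7 in old MSC-L, 17.5 and 19.8 in MSC-S, 6.03 and 68.6 in mOPr, and 18.6 and 27.6 in OPr. Its endothelial levels were 124 CPM in young and 117 in old AEC, and 145 and 98.5 in SEC, and AEC and SEC of both ages stood above every mesenchymal group. Old mOPr exceeded young mOPr by 11.4-fold (9.13 to 14.3), with log2 ratios of 2.82 and 4.50 in ranges 1 and 2. Of the old mOPr counts of *Bst2*, 662 lay in the 14 cells of clusters M1 and M2 and 195 in the 12 cells of M5. In M5 alone the mOPr level differed less, with 17.66 CPM in young and 32.99 in old cells, and the part of cluster make-up was not tested. *Rsad2* ranged from 0.0868 CPM in young MSC-S to 129 in young AEC and had the largest ratio of MSC-L, from 0.658 to 13.6 CPM, with counts in 3 cells of each age and a log2 ratio of -0.79 in range 1. *Isg20* ranged from 4.33 CPM in old AEC to 40.8 in young MSC-S.

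The GTPase members come from the guanylate-binding proteins (*Gbp2*, *Gbp3*) and the immunity-related GTPases (*Igtp*, *Irgm1*, *Iigp1*), which are induced most by interferon gamma and act at the vacuoles of intracellular pathogens. *Gbp2* had 61.6 CPM in young and 42.2 in old MSC-L, 26.5 and 57.5 in MSC-S, 56.1 and 425 in mOPr, and 9.17 and 184 in OPr. In AEC and SEC it had 230.4 CPM in young and 138 in old AEC, and 48.7 and 92.4 in SEC. Old cells were higher in mOPr by 7.57-fold (7.03 to 8.16) and in OPr by 20.02-fold (17.7 to 22.8), although 1 cell held 70.5% of the old mOPr and 1 cell 58.6% of the old OPr counts. Leaving out the top cell at each age gave log2 ratios of 2.16 and 4.52. *Gbp2* was also higher in old MSC-S, by 2.17-fold (2.01 to 2.34), and lower in old AEC, with a log2 ratio of -0.73.

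*Iigp1* had 143 CPM in young and 134 in old MSC-L, 9.52 and 1.25 in MSC-S, 0 and 159.6 in mOPr, and 0.273 and 71 in OPr. Its endothelial levels were 178 CPM in young and 178 in old AEC, and 264 and 75.4 in SEC. This gene had the largest ratio of both progenitor populations. Of its 1138 old OPr counts, however, 1136 lay in 10 cells that the authors' clustering placed in clusters M1 and M2, with most MSC-L, and OPr in cluster M5 had none at either age. Old mOPr was at least 776-fold higher than young mOPr, where no count was found (the bound takes 3 counts over the group). In cells thinned to 100000 counts, *Iigp1* was found in 8 of 26 cells (30.8%) of old mOPr and in 0 of 26 young cells. These cells are not replicates of an age, so the shares carry no test. Within ranges 1 and 2 the log2 ratios were 8.19 and 6.32 in mOPr and 5.79 and 5.90 in OPr. Young SEC exceeded old SEC by 3.51-fold (3.31 to 3.71), while the AEC levels differed by a log2 ratio of 0.01.

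*Igtp* had 84.8 CPM in young and 52.2 in old MSC-L, 15.1 and 15.2 in MSC-S, 5.00 and 169 in mOPr, and 37.1 and 8.99 in OPr. Endothelial *Igtp* had 91.4 CPM in young and 158 in old AEC, and 88.3 and 73.5 in SEC. Old mOPr was higher by 33.8-fold (26.8 to 43.4), with log2 ratios of 3.8 and 5.5 in the ranges. A single old mOPr cell of cluster M5 had 2288 CPM of *Igtp*, and the 14 old mOPr cells of M1 and M2 had 103. In OPr 1 young cell held 89.2% of the young counts and the ranges disagreed (1.55 and -5.25). In MSC-L 1 old cell held 47.8% of the old *Igtp* counts, and the log2 ratio of -0.69 became -1.36 without the highest cells. *Irgm1* had 67.7 CPM in young and 116 in old MSC-L, 53.8 and 33.1 in MSC-S, 119 and 307 in mOPr, and 55.9 and 40.0 in OPr. In the endothelium *Irgm1* had 263 CPM in young and 217 in old AEC, and 136 and 137 in SEC. Its mOPr ratio of 1.36 came from range 2 (3.87), with -0.11 in range 1, where 1 cell held 78.4% of all young mOPr counts, and it was 2.86 without the highest cells. *Gbp3* ranged from 0.0686 CPM in young mOPr to 93.7 in old AEC and had the smallest ratio of MSC-S, from 22.2 to 1.84 CPM, with -2.99 and -3.08 in ranges 1 and 2. Exons of *Igtp* overlap those of *Irgm2* on the same strand.

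The remaining effectors are *Rtp4*, a receptor-transporting protein with antiviral action, *Ifi44* and *Ifi35*, less well understood response genes, *Parp14*, an ADP-ribosyltransferase, and *Xaf1*, which promotes cell death. *Rtp4* had 104 CPM in young and 65.0 in old MSC-L, 12.2 and 10.1 in MSC-S, 6.72 and 33.7 in mOPr, and 0 and 26.1 in OPr. AEC and SEC held 112 CPM in young and 50.6 in old AEC, and 53.1 and 62.8 in SEC. In OPr the old level was at least 255-fold above the young, where no count was found, but all 418 old counts lay in the same 10 cells of clusters M1 and M2. In AEC the young level exceeded the old by 2.21-fold (2.09 to 2.34), with log2 ratios of -1.41, -1.13 and -0.85 in ranges 1 to 3. *Ifi35* had 91.3 CPM in young and 89.9 in old MSC-L, 29.4 and 25.1 in MSC-S, 11.8 and 38.6 in mOPr, and 26 and 42.1 in OPr. Endothelial *Ifi35* had 63.7 CPM in young and 70.7 in old AEC, and 85.1 and 84.3 in SEC, and old and young differed past 2-fold in mOPr alone, by 3.27-fold (2.75 to 3.92). In young MSC-L 1 cell held 48.1% of the *Ifi35* counts, and the level without it was 48 CPM. *Ifi44* ranged from 0.0255 CPM in old MSC-S to 31.9 in old AEC and *Parp14* from 9.99 CPM in young OPr to 168 in old AEC. *Xaf1* ranged from 1.75 CPM in old OPr to 84.5 in young AEC and had the smallest ratio of mOPr, from 21.8 to 3.92 CPM. It was at least 2-fold lower in old cells of MSC-S, mOPr and OPr and at least 2-fold higher in old SEC (log2 ratio 1.00, and 0.92 without the highest cells).

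The sorted mOPr differed between ages in cluster make-up. The authors had clustered the cells by ICGS (iterative clustering and guide-gene selection), with clusters M1 to M16 for mesenchymal and E1 to E7 for endothelial cells. Clusters M1 and M2, which hold most MSC-L, contained 14 of 26 old but 2 of 26 young mOPr, and 10 of 21 old but 3 of 44 young OPr. The 5 MSC-L markers all had counts and summed to 799 CPM in young and 20881 in old mOPr, and to 5407 and 29994 in OPr, with *Cxcl12* highest, against 57033 and 46839 in MSC-L. This list rose together with the members, and its part in the old over young ratios of both populations was not tested. Within old mOPr, the 32 members summed to 1482 CPM in the 14 cells of M1 and M2, close to the 1331 of old MSC-L in these clusters, and to 2375 in the 12 cells of M5. Young mOPr in M5, 7 cells, had 315. Inside M5 alone, 13 members passed, with a median log2 ratio (old over young) of 2.43 (all genes 0.16), 7 of them were at least 2-fold higher against 32.1% of all genes, and 0 lower against 24.6%. *Iigp1* in M5 went from 0 to 103 CPM and *Ifitm3* from 236 to 375. Members with too few counts or cells in M5 to pass also moved, and some fell, *Rtp4* from 22.1 to 0.338 CPM, *Ifih1* from 21.6 to 1.35 and *Xaf1* from 53.3 to 7.61. A single M5 cell with 18683 CPM of the 32 members held 28.4% of the counts of old mOPr, and leaving out 1 such top cell per age gave M5 sums of 175 CPM in young and 1315 in old mOPr. OPr in M5 differed less, with 912 CPM in 14 young and 1103 in 7 old cells, or 603 and 519.9 without the highest cell of each.

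Single cells varied widely inside each group. The 32 members summed to a cell median of 204 CPM in young (lowest 0, highest 3115) and 1094 in old mOPr (247 to 18683), so the groups overlapped. For OPr the cell medians were 253 and 662, and for AEC 1854 and 1592. At a thinned depth of 100000 counts, a median of 4 members was detected per young and 8 per old mOPr cell, and 4 and 6 per OPr cell. In AEC the median was 12 at both ages, in SEC 10 and 9, in MSC-S 5 at both ages and in MSC-L 12 and 9.5. The highest cell, an old AEC of cluster E4, had 30 of 34 members detected after thinning and 19398 CPM of the 32 members, 12.3% of the counts of its group. Among young MSC-S, 1 cell of cluster M8 held 23.1% of the group's counts, with 25 members detected.

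**Figure D3:**
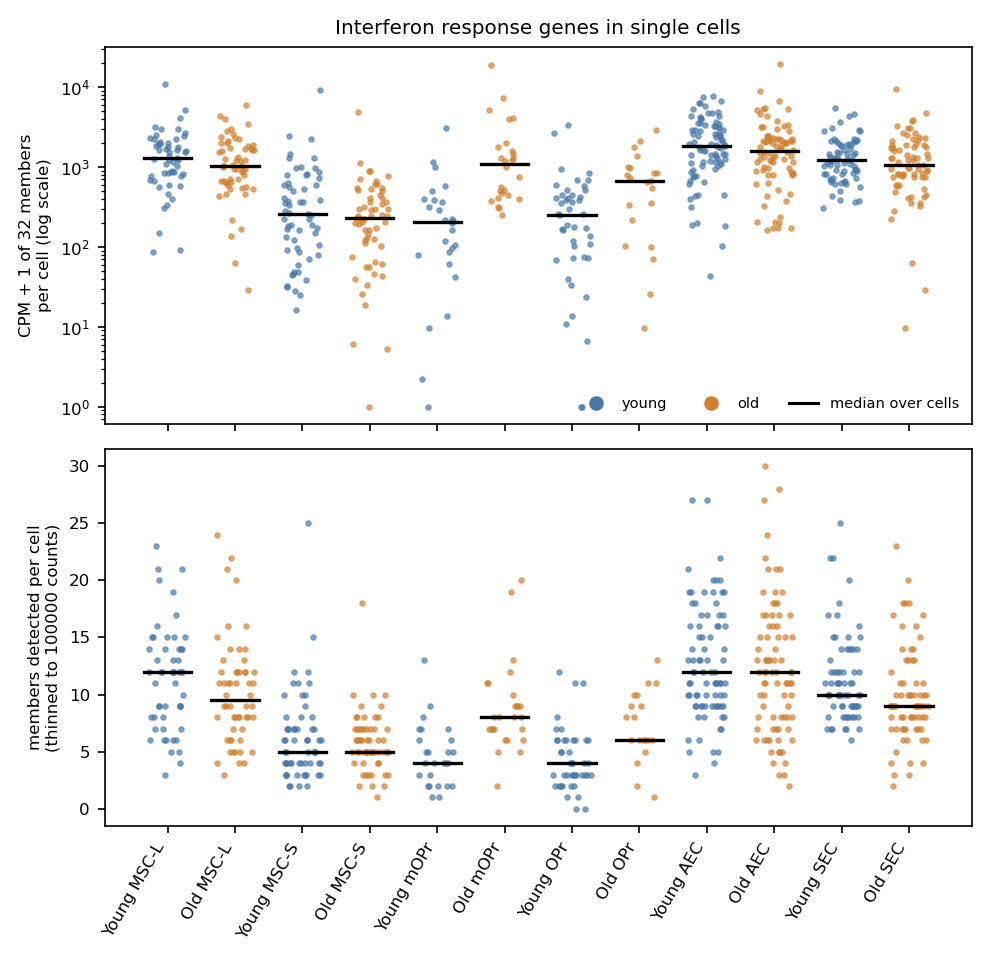
Each point is a cell of the 12 groups, with the summed CPM of the 32 members plus 1 on a log axis above and the number of the 34 members detected at a thinned depth of 100000 counts below, and bars at the medians. Old mOPr (median 1094 CPM) lie above young mOPr (204), and the highest cells are an old AEC at 19398 and an old mOPr at 18683 CPM.

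Among endothelial ICGS clusters, all of 5 or more cells, the 32 members over both ages were highest in E3 (2459 CPM) and E4 (2388), the clusters of AEC-like identity, followed by E6 (2251), E5 (1767), E7 (1400.0, SEC-like), E1 (1332) and E2 (721, or 296 without 1 of its 8 cells). Without its top cell E4 (2069) lay below E6 (2111 without its own). Among mesenchymal clusters of at least 5 cells, M2 (1664), M8 (1366), M1 (1205), M5 (1151) and M7 (912) stood above M6 (563), M12 (384), M3 (351), M4 (278), M9 (236), M15 (219) and M16 (188) in summed level. Without its top cell, which held 37.7% of the counts, M15 (145) lay below M16 (169 without its own). In M8 a single cell of 7 held 65.8% of the counts (519 CPM without it), and the M5 sum lay far above the median of its cells, 294 CPM, which was below the cell medians of M3 (366), M12 (349), M6 (333) and M4 (312). Young and old cells differed most in M5, at 728 and 1641 CPM (586 and 1097 without the highest cell of each), among mesenchymal clusters with at least 10 cells of each age. For E3 and E4 the values were 2687 and 2301, and 2309 and 2454. Leaving out 1 top cell per age gave E3 2480.3 and 2123 CPM, and E4 2085 and 1865, so the order of young and old turned in E4, where 1 cell held 26.6% of the old counts. The clusters were built from the expression of these cells, so a cluster against the others is a description.

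**Figure D4:**
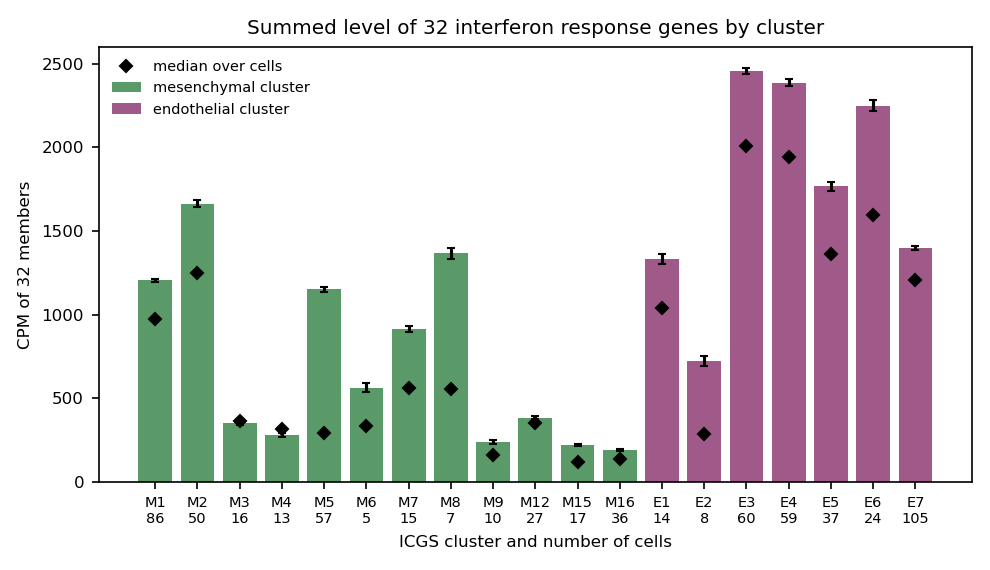
Summed CPM of the 32 members in each ICGS cluster with at least 5 cells, both ages together (bars, with exact 95% Poisson intervals), and the median over its cells (diamonds); the numbers under the names are cells. E3 (2459) and E4 (2388) are highest, and the bar of M5 (1151) stands well above its cell median (294).

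Arterial and sinusoidal endothelium were compared in range 3, which held 24 young and 23 old AEC beside all SEC. The 5 arteriolar markers summed to 2564 CPM in young and 3329 in old AEC over all ranges, against 247 and 952 in SEC, with *Ly6a* highest and none at 0. The 4 sinusoidal markers summed to 14750.4 and 11491 in SEC (*Stab2* highest) against 1742 and 1095 in AEC (*Il6st* highest), again with none at 0. In young mice 29 members passed, the median log2 AEC over SEC ratio was 0.77 (all genes -0.10), 10 were at least 2-fold higher in AEC against 17.3% of all genes, and 2 were lower against 24.9%. *Irf1* was among the 10, with 1336 CPM in AEC and 303 in SEC. In old mice 31 passed with a median of 0.18 (all genes -0.22), or -0.21 with the highest cell of each group left out, 5 were at least 2-fold higher (15.3%) and 7 lower (27.6%). *Irf1* (2181 against 256 CPM) and *Isg15* (24.7 against 5.02) were higher in old AEC, and *Rtp4* (27.2 against 62.8) was lower. Cell type, tissue site and digestion time cannot be told apart here, since the authors digested endosteal tissue longer than central marrow.

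The mesenchymal cells of the central marrow and the endosteum, MSC-L and MSC-S, were compared at each age. All 4 MSC-S markers had counts and summed to 2342 CPM in young and 2747 in old MSC-S against 2.32 and 5.95 in MSC-L, with *Ly6a* highest. Among 30 members that passed in young mice, the median log2 MSC-L over MSC-S ratio was 1.56 (all genes 0.32), 18 were at least 2-fold higher in MSC-L against 28.8% of all genes, and 3 were lower against 16.8%. In old mice 29 passed with a median of 1.71 (all genes 0.37), 22 higher (32.8%) and 1 lower (16.2%). Ranges 1 and 2 gave 1.72 and 1.51 in young and 0.94 and 2.10 in old mice. *Iigp1* showed the difference at both ages, with 143 against 9.52 CPM in young and 134 against 1.25 in old cells. *Irf1* went the other way at both ages, with 187 against 473 and 227 against 473 CPM. Here too, cell type, tissue site and digestion time cannot be told apart.

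The wider pathway was read through 37 further genes, from ligands to feedback inhibitors. Of 10 interferon genes, 7 had no count in any of the 653 cells (*Ifnb1*, *Ifna1*, *Ifna2*, *Ifna4*, *Ifna5*, *Ifnl2*, *Ifnl3*), and *Ifne*, *Ifnk* and *Ifng* had 91, 9 and 2 counts. Shares of all genes under the same rule are in parentheses. At least 2-fold higher in old cells were 12 of the 21 pathway genes that passed in OPr (26.4%) and 7 of 22 in mOPr (24.7%). None was at least 2-fold lower in OPr (18.4%) or mOPr (19.8%). In MSC-L 1 of 23 was higher (13.9%) and 4 lower (11.5%), and in MSC-S 3 of 24 were higher (8.65%) and 2 lower (11.1%). In AEC 0 of 23 were higher (9.33%) and 2 lower (11.7%), and in SEC 1 of 22 was higher (13.1%) and 1 lower (7.56%).

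The receptor genes for type I interferon rose in old OPr, *Ifnar1* from 40.7 to 84.3 CPM and *Ifnar2* from 54.3 to 168, though *Ifnar1* had a log2 ratio of -0.18 in range 1. *Ifngr1*, the ligand-binding chain of the interferon gamma receptor, rose from 114 to 605 CPM, and *Il10rb*, shared by the lambda interferon and IL-10 receptors, from 11.4 to 60.9. The interferon gamma receptor gene had positive log2 ratios in both ranges of OPr (2.05 and 3.19). Clusters M1 and M2 held 10 of 21 old but 3 of 44 young OPr, and the part of cluster make-up in the OPr ratios of pathway genes was not tested. *Irf8*, a factor best known from myeloid cells, went from 0.137 to 82.3 CPM in mOPr and from 0.580 to 55.8 in OPr (log2 ratio 5.17, and 3.13 without the highest cells), and fell from 49.7 to 20.4 in AEC. The 15 hematopoietic markers summed to 27.1 CPM in old mOPr (*Fcer1g* highest; *Cd52*, *Cd53*, *Itgb2* and *Csf3r* at 0) and to 4.04 in young mOPr. In OPr the list rose from 9.00 in young (*Plek* highest, *Cd52* and *Csf3r* at 0) to 43.1 in old cells (*Coro1a* highest, *Fcer1g* at 0), where 2 retained cells carried 6 and 5 of the 15 markers, and its part in the *Irf8* increase was not tested.

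In mOPr the adaptor gene *Myd88* rose from 43.8 to 207 CPM and *Irf3*, which switches on interferon genes, from 47.6 to 134, both with positive ratios in each range. *Tmem173*, which encodes STING, fell from 88.6 to 4.85 CPM in MSC-S (log2 ratios of -4.19 and -4.09 in the ranges), although 1 cell held 68.2% of the young counts and the pooled -3.94 became -2.99 without the highest cells. The feedback inhibitor *Socs3* rose from 928 to 2849 CPM in OPr (log2 ratio 1.62, and 0.99 without the highest cells) and fell from 436 to 208 in MSC-L. *Pias1*, a further inhibitor gene, fell from 126 to 51.9 CPM in MSC-L.

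Across single cells, members went together only in part. In MSC-L, AEC and SEC, correlations were computed among 15 members, the 10 highest per kb with *Ifit1*, *Ifit3*, *Oasl2*, *Rsad2* and *Usp18*. The highest Spearman values were those of *Irgm1* with *Iigp1* (0.53) and *Igtp* with *Iigp1* (0.50), both in the 166 AEC of the 2 ages. These points share libraries and depth, and many cells had no count of either gene.

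Promoters of 25 of the 34 members, 250 bases before to 50 after the start, were found in the RefSeq table for GRCm38.p6. The others were *Dhx58*, *Zbp1*, *Usp18*, *Oas2*, *Mx1*, *Mx2*, *Iigp1*, *Rtp4* and *Parp14*. The interferon-stimulated response element, bound by IRF proteins, was searched as GAAANNGAAA on both strands (TTTCNNTTTC on the other) and found in 15 of the 25 genes (60%), against 3.99% of 27025 genes and 3.44% of 32851 promoters of the same length. A match is a string of letters and not a shown binding site. The promoters printed are those of *Isg15*, with 3 matches to the response element, *Ifit1* with 2 and *Gbp2* with 1. They stand for the ubiquitin-like, RNA-binding and GTPase members. Capitals mark the response element in the *Isg15* (chr4:156200769-156201068, minus strand), *Ifit1* (chr19:34640639-34640938, plus strand) and *Gbp2* (chr3:142620413-142620712, plus strand) promoters, each written 5′ to 3′.
Isg15: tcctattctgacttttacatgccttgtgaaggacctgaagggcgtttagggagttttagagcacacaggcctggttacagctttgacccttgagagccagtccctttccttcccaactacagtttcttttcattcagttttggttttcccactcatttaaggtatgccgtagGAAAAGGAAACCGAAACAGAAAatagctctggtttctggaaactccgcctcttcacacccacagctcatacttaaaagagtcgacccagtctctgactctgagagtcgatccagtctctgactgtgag
Ifit1: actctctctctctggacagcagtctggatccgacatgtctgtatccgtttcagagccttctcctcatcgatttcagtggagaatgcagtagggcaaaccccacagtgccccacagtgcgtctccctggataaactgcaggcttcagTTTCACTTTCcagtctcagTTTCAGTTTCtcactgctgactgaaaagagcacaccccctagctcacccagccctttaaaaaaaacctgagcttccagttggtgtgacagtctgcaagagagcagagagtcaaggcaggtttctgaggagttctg
Gbp2: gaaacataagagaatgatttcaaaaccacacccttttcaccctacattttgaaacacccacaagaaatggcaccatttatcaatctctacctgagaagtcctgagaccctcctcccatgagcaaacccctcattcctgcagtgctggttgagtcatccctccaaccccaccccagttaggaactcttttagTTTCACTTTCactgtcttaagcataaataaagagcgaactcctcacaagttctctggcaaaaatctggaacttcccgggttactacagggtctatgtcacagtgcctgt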

How the data were processed

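Single cells were index-sorted into plates, and full-length cDNA was amplified and sequenced without molecular identifiers. Per the submitters' processing notes, the authors aligned reads to GRCm38.p4 (GSNAP), summed them by gene without strand (HTSeq), and deposited raw counts without normalization. The table held 46078 gene entries. The 270 repeats of a symbol were summed, and 37 mitochondrial genes were left out of totals. Ages, populations and clusters came from the labels. Members and lists (pathway genes; hematopoietic, neutrophil, pan-endothelial, pan-mesenchymal, arteriolar, sinusoidal, osteoprogenitor, MSC-L and MSC-S markers) were chosen with earlier results of these data known. Of the pathway list, 1 gene is not reported here.

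CPM came from summed nuclear counts. Genes needed 100 or more counts, in 5 or more cells over both groups, to be compared, with 1 CPM added, and a 2-fold difference was counted. Exon lengths came from GENCODE annotation of GRCm38. Values in all 12 groups are printed for the 10 members highest per kb and for members past 2-fold 1 way in at least 4 of 6 populations. Others are given by range, and further where they had a population's largest or smallest ratio or were held mostly by 1 cell. Pathway genes are named where past 2-fold in at least 1 population, up to 10 by counts. Fold ratios have nothing added, and where a group had 0 counts, 3 counts over that group stood in.

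Alternatives tried were cell-wise mean CPM, size factors by median of ratios, thinning to 100000 counts, a pseudocount of 0.1 CPM, no count filter, keeping the *Il1b*-high cells, leaving out cells with at least 7 of 15 hematopoietic or 7 of 10 other-lineage markers at 10 CPM, leaving out the highest cell, each library-number range alone, and identity groups. Chosen only after seeing the data were a floor for members at 0, leaving out each gene's own highest cell, and cluster M5 alone. The steps were tested on simulated data. The code used matplotlib 3.10.9, scipy 1.17.1, pandas 2.3.3 and numpy 2.4.6 under Python 3.11.15.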

Additional observations from a re-analysis of the deposited data

Results flagged for a closer look

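Some members moved past 2-fold with age in opposite directions in different populations, pooled, within both library-number ranges and without each gene's highest cells. *Usp18* had a log2 old over young ratio of 3.97 in mOPr and -4.26 in OPr (5.32 and -2.84 without the highest cells). With the OPr-like identity group in place of sorted OPr, the *Usp18* direction turned, from 19.6 CPM in young to 66.7 in old cells. *Ifit3* had -2.00 in MSC-S, 5.34 in mOPr and -3.65 in OPr (-2.15, 4.51 and -3.04). Its OPr-like levels were closer, at 16.5 CPM in young and 12.2 in old cells. *Oasl2* had -2.52 in MSC-S and 5.41 in mOPr (-1.79 and 5.04). Of the old mOPr counts of *Oasl2*, 680 lay in the 14 cells of M1 and M2 and 18 in the 12 cells of M5. Within M5 its mOPr level went from 0.841 CPM in young to 3.04 in old cells. *Gbp3* had -3.03 in MSC-S, 6.33 in mOPr and 4.68 in OPr (-2.57, 3.23 and 4.98), and in mOPr 1 cell held 90.4% of the old counts. *Parp14* had -1.34 in MSC-S and 2.09 in OPr (-1.11 and 2.21). These differences between populations were not tested, since each group is 1 sample.

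The 8 old OPr cells with *Il1b* at 1000 CPM or more, left out of the comparisons, lay in cluster M5, had *Il1b* from 1229 to 29522 CPM and carried 12 to 15 of 15 hematopoietic markers. The highest *Il1b* among retained cells was 61.5 CPM, in an old OPr cell with 6 such markers. Their hematopoietic list summed to 23747 CPM (*Plek* highest, none at 0) and the neutrophil list to 30540.4 (*S100a9* highest, *Camp* and *Ltf* at 0). Their members included *Ifih1* at 194 CPM, *Isg15* at 64.4, *Ifit1* at 33.8 and *Oas2* at 15.1, against 6.05, 0.624, 0 and 0 in retained old OPr. *Iigp1*, *Gbp3* and *Irgm1* were at 0 in the 8 cells. The 32 members summed to 1089 CPM in them.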

How the results depend on the processing

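No paired analysis was possible because the labels name no mouse and the cell numbers pair nothing between groups. With 1 sample a group, the values below carry no test, and depth limits members seen in few cells. Of 128 recomputed medians, 124 kept within the interval of the reported value. That interval is for the median over members and is wide, from 1.36 to 3.45 in mOPr and from -0.54 to 2.54 in OPr. In OPr a change of sign could therefore count as kept. Keeping the *Il1b*-high cells changed OPr alone. Leaving out cells with hematopoietic markers changed nothing in MSC-L, MSC-S, mOPr, OPr or AEC, so medians recomputed there could not move. The lowest and highest recomputed medians were 2.08 and 2.98 in mOPr, 0.60 and 1.74 in OPr, -0.67 and 0.04 in MSC-L, -0.97 and 0.00295 in MSC-S, -0.69 and 0.25 in AEC and -0.12 and 0.10 in SEC. For AEC over SEC they were 0.39 and 0.81 in young and -0.21 and 0.27 in old mice, and for MSC-L over MSC-S 1.11 and 1.76 and 0.94 and 2.10. The old AEC over SEC median changed sign when the highest cell of each group, or each gene's own highest cell (-0.14), was left out. Of 1365 recomputed ratios of named members, 835 kept within their interval, 511 moved in size and 19 changed sign. AEC over SEC had no range other than range 3, mOPr no identity group of its own. For each value below the cause was not tested.

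Counts of members past 2-fold are out of those that passed, with the share of all genes in parentheses. In range 1 alone, old MSC-L had 1 of 25 higher (17.5%) and 9 of 25 lower (17.6%), and log2 ratios there were -2.37 for *Zbp1* and -0.79 for *Rsad2*. The MSC-S median was 0.00295 in that range, with 4 of 21 higher (16.1%) and 5 of 21 lower (18.2%), *Zbp1* at 2.28 and *Iigp1* at 1.66. Old mOPr had 0 of 21 lower (26.6%), with *Zbp1* at 0.36 and *Irgm1* at -0.11, and OPr 2 of 15 lower (31.7%), with *Igtp* at 1.55. AEC had 9 of 29 higher (16.3%). MSC-L over MSC-S in old mice had a median of 0.94, 10 of 22 higher (30.9%) and 3 of 22 lower (21.4%). In range 2 alone, old MSC-S had 0 of 26 higher (10.9%) and *Ifit1* at -0.77, mOPr 12 of 15 higher (30.7%), 0 of 15 lower (23%) and *Mx2* at -1.92, AEC 2 of 32 higher (14.7%), and old MSC-L over MSC-S 0 of 27 lower (18.6%). In range 3 alone, the AEC median was -0.69, with 2 of 26 higher (17.6%), 10 of 26 lower (19.2%) and *Mx2* at -1.82.

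Thinned to 100000 counts, old MSC-L had 1 of 27 higher (11.8%), MSC-S 0 of 21 higher (6.37%), mOPr 0 of 17 lower (17.5%), OPr 2 of 15 lower (12.7%) and AEC 4 of 31 higher (7.57%). AEC over SEC then had 1 of 25 lower (22.9%) in young and 3 of 25 higher (15.0%) in old mice. The mean of CPM over cells gave 1 of 24 lower (20.3%) in mOPr and 4 of 32 higher (9.47%) in AEC. Size factors gave 0 of 29 lower (13.0%) for old MSC-L over MSC-S. With 0.1 CPM added, AEC had 2 of 32 higher (10.9%). Without the count filter, mOPr had 4 of 33 lower (17.3%). With the highest cell of each group left out, *Ifit1* in MSC-S was -0.30, *Igtp* in OPr 1.03, AEC had 2 of 32 higher (9.39%), SEC 5 of 30 lower (7.68%) and AEC over SEC in old mice 3 of 27 higher (15.4%).

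Identity groups in place of sorted populations gave an MSC-S-like median of -0.21 with 1 of 28 higher (8.01%). OPr-like cells had 3 of 25 lower (20.7%), with *Usp18* at 1.72, *Mx2* at 0.87, *Igtp* at 1.31 and *Rtp4* at -1.65. SEC-like cells had 4 of 28 higher (11.4%), 6 of 28 lower (10.4%) and *Rsad2* at -0.11. Of the alternatives chosen after seeing the data, leaving out each gene's own highest cell gave 7 of 31 lower (12.1%) in MSC-L, *Ifit1* at -0.30 in MSC-S, 3 of 32 higher (8.00%) in AEC, 5 of 29 lower (38.4%) for AEC over SEC in young mice and 0 of 29 lower (18.5%) for old MSC-L over MSC-S. In cluster M5 alone, mOPr had 7 of 13 higher (32.1%) and 0 of 13 lower (24.6%) (with log2 old over young of Rtp4, mOPr, at -4.11), and OPr 4 of 8 higher (32.9%) and 2 of 8 lower (28.7%). The remaining counts of members past 2-fold, 107 of 128 higher and 106 of 128 lower, lay within 1.5 times the reported count.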
